A study of Mus musculus with 12 samples.

Results

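The mitochondrial genome of the mouse holds 37 genes, and all 37 were found among the 51912 gene IDs of the table as the genes whose symbol begins with mt-. They are 13 protein genes, 2 ribosomal RNA (rRNA) genes and 22 transfer RNA (tRNA) genes. RNA from fresh heart ventricle was sequenced in 12 libraries, 3 for each sex of wild-type (WT) and of LCHADD mice, with no treatment. LCHADD stands for deficiency of long-chain 3-hydroxyacyl-CoA dehydrogenase, which mitochondria need to oxidise long-chain fatty acids, and the comparison throughout is LCHADD against WT within each sex. The allele behind the LCHADD label, the strain, the age and whether animals were pooled are unnamed in the labels. The labels do not say that libraries came from separate animals, so p-values measure the spread between these libraries, which may be technical.

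Mitochondrial DNA is copied and transcribed inside the organelle, and each of its strands is read as a long transcript from which rRNAs, tRNAs and mRNAs are cut out. The 13 proteins are core subunits of complexes I, III and IV of the respiratory chain and of ATP synthase (complex V), where they assemble with many subunits encoded in the nucleus. The rRNAs build the mitochondrial ribosome that translates only these 13 mRNAs. Heart muscle is packed with mitochondria, and mitochondrial transcripts take a large part of its RNA.

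The deposited value of a gene is its number of reads scaled by the size factor of its library, called normalised reads here. Depth ran from 15.6 M to 23.2 M reads per library. All 12 cardiomyocyte marker genes on the list used here were detected, and their summed normalised reads ran from 1415000 to 1520000 in WT females and from 796700 to 1146000 in LCHADD females. In males they ran from 1458000 to 1545000 in WT and from 1213000 to 1379000 in LCHADD. WT female 3 and LCHADD female 2 stood apart in earlier results of these data, and counts without them are given below.

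The sequences shown here, from GENCODE vM21 transcripts on build GRCm38, bear on how the members could be counted. The first is mt-Tp, a proline tRNA and the only tRNA with enough reads to test.
mt-Tp: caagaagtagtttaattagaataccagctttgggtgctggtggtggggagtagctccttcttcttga

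The others show sequence that several mRNAs share with nuclear copies, so that their reads may not be placed with certainty. Whether this sharing lowered the counts of these mRNAs was not tested. A stretch of 60 bases of mt-Co2, mt-Nd3 and mt-Co1 stands beside that of the annotated nuclear copy, a pseudogene on chromosome 1, and capitals mark the bases that differ. The mt-Co2 copy had no difference in its 681 aligned bases. The mt-Nd3 copy differed at 1 of 345 bases, T3C, counted from the first base of the mitochondrial gene. The mt-Co1 copy begins at base 1054 of the gene, and its 6 differences (T1056A, C1057T, A1059G, A1060G, C1062A and A1066T) all lie near that start.
mt-Co2: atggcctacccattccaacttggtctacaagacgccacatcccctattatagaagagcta
Gm28661: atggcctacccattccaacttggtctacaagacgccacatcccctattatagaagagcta
mt-Nd3: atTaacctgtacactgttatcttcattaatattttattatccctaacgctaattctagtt
Gm28438: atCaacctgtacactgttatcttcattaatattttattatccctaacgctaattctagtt
mt-Co1: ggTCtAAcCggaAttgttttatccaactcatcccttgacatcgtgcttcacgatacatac
Gm29216: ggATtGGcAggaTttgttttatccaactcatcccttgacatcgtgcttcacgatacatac

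Such a copy was compared for 7 of the 13 protein genes. These 7 copies lie next to each other on chromosome 1 in the order the genes have on the mitochondrial genome. The copies of mt-Co2, mt-Atp6, mt-Co3 and mt-Nd4l are identical to the gene over 681, 678, 783 and 294 aligned bases. The copy of mt-Nd4 covers 876 of its 1378 bases without a difference, and the copy of mt-Co1 covers 492 of 1545 bases with 486 identical. Only annotated nuclear transcripts were searched for shared sequence, so copies outside them could be missed. The share of each gene's 75-base words that also occur in annotated nuclear transcripts was counted, as a guide to reads that cannot be placed. It was 97.8% for mt-Nd3, 98.7% for mt-Nd4l, 99.5% for mt-Co2 and mt-Atp6 and 99.9% for mt-Co3. It was 61.5% for mt-Nd4 and 39.8% for mt-Co1, 5.71% for mt-Nd2 and 1.66% for mt-Nd5, and 0 for mt-Nd1, mt-Nd6, mt-Cytb, mt-Atp8 and both rRNAs. Beside the 7 copies, words were shared with Gm13340 (mt-Co1), Gm13341 (mt-Co2), Gm13339 (mt-Nd2), and Gm11407 and Gm4076 (mt-Nd5). The changes of those transcripts were not examined. How the counting treated reads that match several places is not stated.

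Levels per length were far lower for the 5 genes whose sequence is nearly all shared. Mean normalised reads per kb in WT were 1576830 for mt-Co1, 689738 for mt-Cytb, 582540 for mt-Nd1 and 407545 for mt-Nd2. mt-Nd5 had 295710, mt-Nd4 291385 and mt-Nd6 229443. The 5 genes with more than 97% of their words shared were far below them, at 8345 for mt-Co2, 7062 for mt-Co3, 3951 for mt-Atp6, 1580 for mt-Nd3 and 922 for mt-Nd4l. mt-Atp8, which has no annotated copy but lies between mt-Co2 and mt-Atp6, was lowest at 42.2. All 13 genes are carried by long common transcripts, so the order of these counted levels is not taken here as the order of the RNAs. The changes of these 6 mRNAs and of mt-Nd4 and mt-Co1 are given as uncertain. By this measure, with under 10% of words shared, the 5 mRNAs mt-Nd1, mt-Nd2, mt-Nd5, mt-Nd6 and mt-Cytb and the rRNAs are called distinct. mt-Atp8 was also under 10% but is kept apart for its low level. Sums over the distinct mRNA genes include mt-Atp8, at no more than 0.00057% of their reads in any library.

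**Figure D1:**
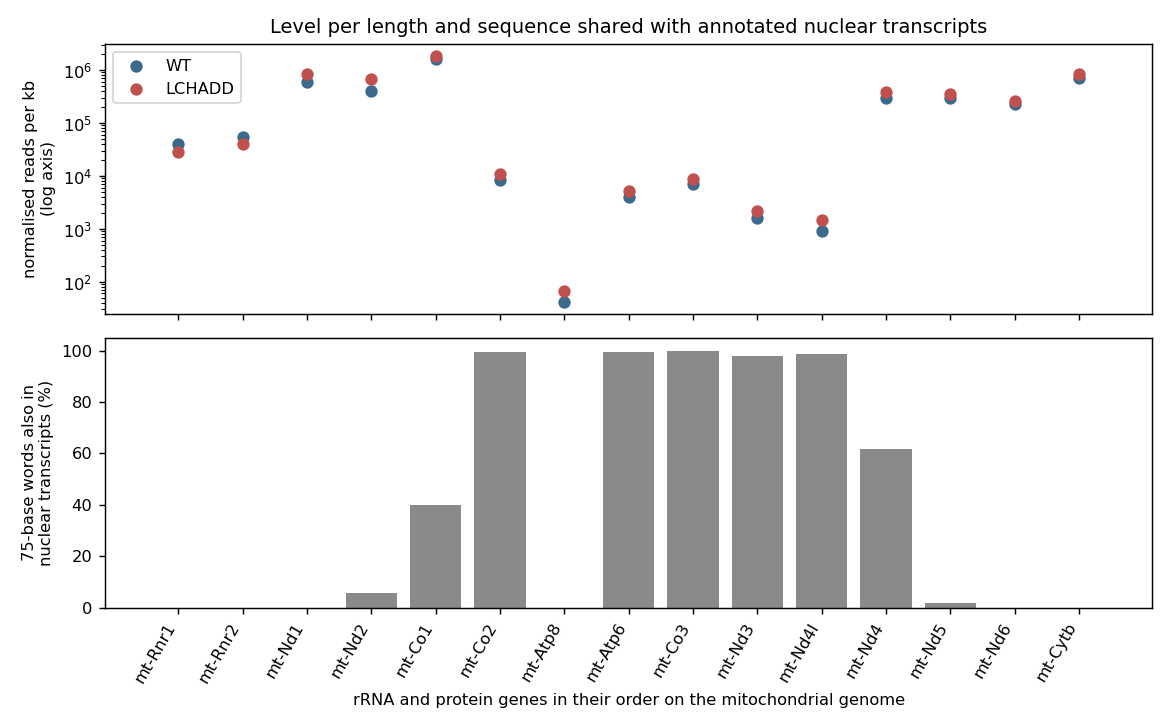
The upper panel plots mean normalised reads per kb of each rRNA and protein gene in WT and LCHADD on a log axis, and the lower panel the percentage of its 75-base words found in annotated nuclear transcripts. The 5 genes above 97% in the lower panel lie between 922 and 8345 in WT, while mt-Co1, mt-Cytb and mt-Nd1 lie above them.

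Mitochondrial transcripts took a larger part of the reads in LCHADD ventricles than in WT, and within them the classes went in opposite directions, mRNA up and rRNA down. The 37 genes together took 27.9, 27.5 and 28.3% of all reads in the WT females and 31.6, 31.0 and 37.9% in the LCHADD females. In the males they took 30.2, 32.7 and 29.3% in WT and 34.4, 36.1 and 35.6% in LCHADD. Within each sex every LCHADD library was above every WT library, while the LCHADD females overlapped the WT males. LCHADD female 3 had the highest share of all 12 libraries. The mean difference over the sexes was 5.13 percentage points (5.62 in females, 4.65 in males). With genotype labels exchanged within each sex, the exact two-sided permutation p was 0.005, the smallest that the 400 arrangements can give, and it stayed 0.005 after adjustment over the 4 such tests made here. Within 1 sex, 3 libraries against 3 cannot go below an exact p of 0.1, and all 4 measures gave 0.1 in each sex.

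The mRNAs made up almost all of this share. They took 27.2 ± 0.449% of reads (mean ± SD, n = 3) in WT females, against 33.1 ± 3.83% in LCHADD females. The male means were 30.1 ± 1.70% in WT and 34.8 ± 0.879% in LCHADD. The mean difference was 5.33 percentage points (exact permutation p = 0.005), with no overlap within either sex. Counting only the 5 distinct mRNA genes, the difference was 3.50 percentage points, with the same exact p of 0.005. A share falls when other RNAs rise, so it describes the make-up of the RNA and not the amount per cell. In tissue, fewer cells of a type and less RNA per cell cannot be told apart.

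The rRNAs went the other way. They took 0.696, 0.689 and 0.626% of all reads in the WT females and 0.348, 0.457 and 0.394% in the LCHADD females. The males had 0.641, 0.723 and 0.614% in WT and 0.488, 0.566 and 0.513% in LCHADD. All 6 LCHADD libraries were below all 6 WT libraries. The mean difference was -0.20 percentage points (-0.27 in females, -0.14 in males; exact permutation p = 0.005).

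The ratio of the classes needs neither the library total nor the scaling. In WT females there were 25.6, 25.7 and 22.6 mitochondrial rRNA reads per 1000 mitochondrial mRNA reads, and in LCHADD females 11.1, 15.0 and 10.5. In males the ratio was 21.7, 22.6 and 21.4 in WT and 14.4, 15.9 and 14.6 in LCHADD. All 6 LCHADD libraries lay under all 6 WT libraries, and the LCHADD mean was 0.495 of the WT mean in females and 0.684 in males. On the log2 scale the mean difference was -0.79 (-1.03 in females, -0.55 in males; exact permutation p = 0.005). With the distinct mRNA genes alone as the denominator it was -0.88, and with mt-Rnr2 alone as the numerator -0.76. Whether this ratio changed more in females than in males was not tested.

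**Figure D2:**
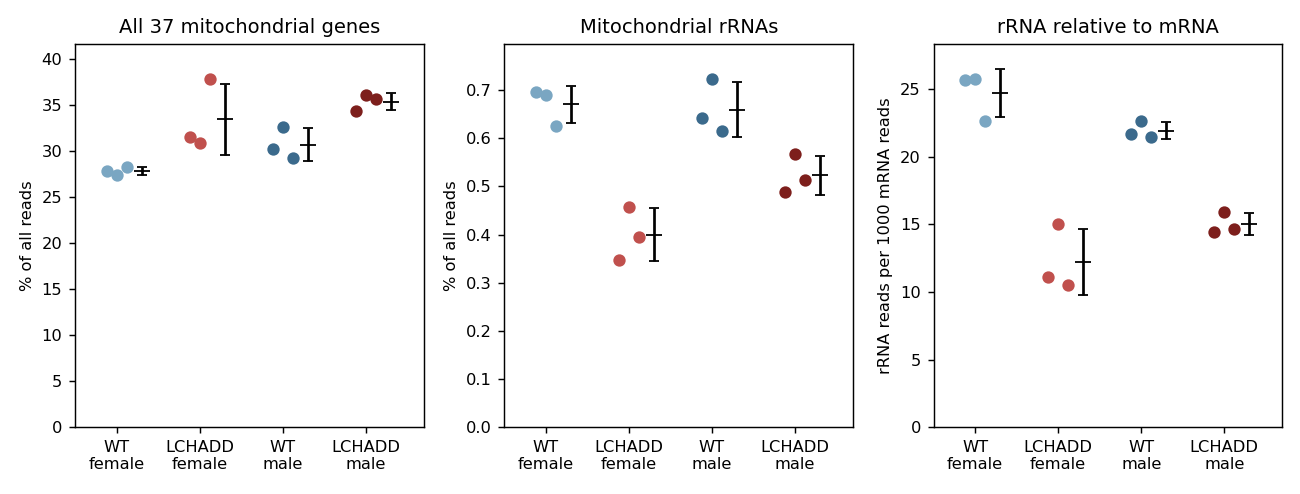
Each point is 1 library; lines and bars beside the points are the mean and SD of 3 libraries. The left panel plots the percentage of all reads in the 37 mitochondrial genes, the middle panel that in the 2 rRNAs, and the right panel rRNA reads per 1000 mRNA reads. LCHADD is higher within each sex on the left, and lower than every WT library in the other panels.

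Gene by gene, 16 members passed the filter on low values (at least 10 normalised reads in at least 3 libraries) and were tested with all 13865 such genes in 1 limma fit, on log2 of the value plus 1. The 16 are the 13 mRNAs, both rRNAs and mt-Tp. The call was set at 0.05 for limma's p with Benjamini-Hochberg adjustment across those 13865 genes, and every adjusted p below is that one. In females 10 of the 16 passed, 8 higher and 2 lower, against 33.8% of all tested genes (16.7% higher, 17.2% lower). In males 6 passed, 5 higher and 1 lower, against 15.5% of all tested genes (7.71% higher, 7.77% lower). In the mean of both sexes 11 passed, 9 higher and 2 lower, against 40.8% of all tested genes (20.3% higher, 20.6% lower). The count in females was 6 without WT female 3, where 27.8% of all tested genes passed. That in males was 3 without WT male 1, LCHADD male 1 or LCHADD male 3, where 9.61%, 9.5% and 10.8% of all tested genes passed. It was 10 without LCHADD female 2 or LCHADD female 3, where 23.8% and 18.7% passed; these enter by way of the spread that all groups share in the fit. With WT female 3 and LCHADD female 2 both left out, which was decided once the values were known, the counts were 11 (females), 9 (males) and 14 (mean of both sexes), against 27.0%, 23.9% and 38.8% of all tested genes.

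All 13 mRNAs had a positive change in each sex, and none fell. 7 of 13 rose in females and 4 in males, against 16.7% and 7.71% of all tested genes. 8 rose in the mean of both sexes, against 20.3%. Among the distinct mRNAs, mt-Nd1 and mt-Nd2 passed in each sex and in the mean. mt-Nd5, mt-Nd6 and mt-Cytb passed in none of these. The other mRNAs that rose are all among those whose changes are given as uncertain. The median log2 change of all 13 was 0.37 in females and 0.38 in males and in the mean. The median of all tested genes was 0.00. The 3 LCHADD libraries lay wholly above the 3 WT libraries for 9 of the 16 tested members in females and 11 in males, where 22.2% and 19.6% of all tested genes did so (44.5% and 38.9% without overlap in either direction). They lay wholly below for 2 members in females and 1 in males (22.3% and 19.3% of all tested genes).

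**Figure D3:**
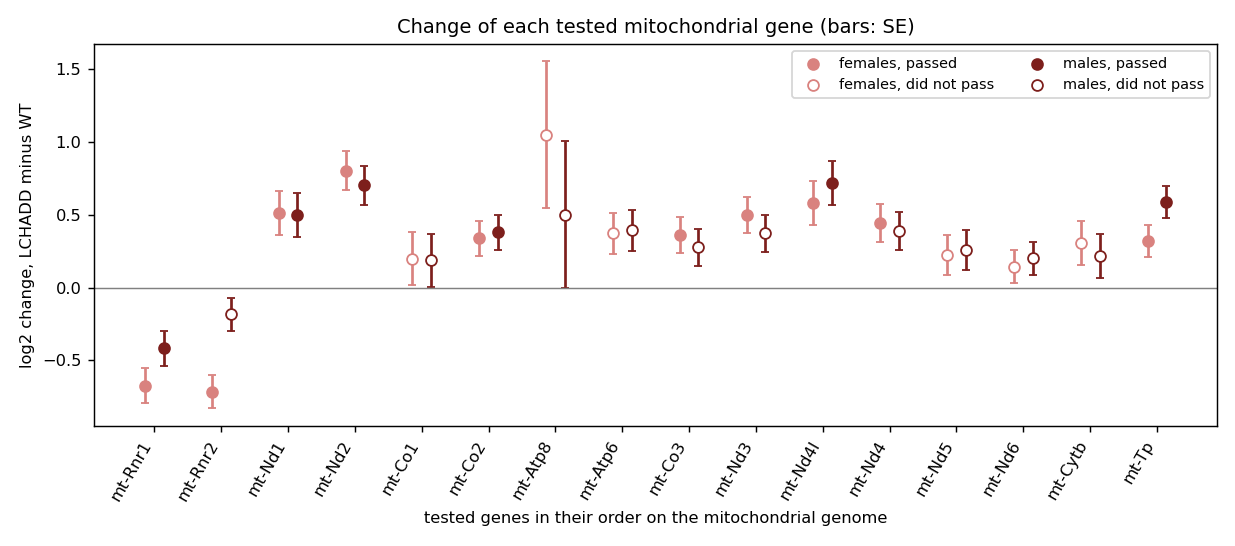
Log2 change (LCHADD minus WT, bars are SE) of the 16 tested members in genome order, light for females and dark for males; filled points passed at an adjusted p under 0.05. The 2 rRNAs at the left lie below 0, and all 13 mRNAs and mt-Tp lie above it, with mt-Nd2 at 0.80 in females and 0.70 in males.

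Complex I, which takes electrons from NADH, has 7 subunits encoded here. 5 of the 7 rose in the mean of both sexes, where 20.3% of all tested genes did. Among these 5, mt-Nd1 and mt-Nd2 were distinctly counted. The changes of mt-Nd3, mt-Nd4 and mt-Nd4l are given as uncertain. mt-Nd2 (ENSMUSG00000064345), a subunit of the proton-pumping membrane arm, had the largest change in the mean of both sexes among the mRNAs that passed, 0.75 (SE 0.09, adjusted p = 1.79e-05) on the log2 scale. Its normalised reads were 406558, 377188 and 367215 in WT females, against 631323, 603123 and 784067 in LCHADD females. In males they were 465982, 505785 and 415462 in WT and 727136, 797185 and 728134 in LCHADD. Every LCHADD library was above every WT library of either sex. The log2 change was 0.80 (SE 0.13, adjusted p = 0.000330) in females and 0.70 (SE 0.13, adjusted p = 0.00252) in males. It was called in every alternative in females, and in males in all but the one without a filter on low values.

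mt-Nd1 (ENSMUSG00000064341), which forms part of the site where ubiquinone is reduced, had 535554, 514382 and 479503 normalised reads in WT females, against 696725, 604163 and 913179 in LCHADD females. In males it had 608826, 651566 and 555115 in WT and 805239, 899182 and 860827 in LCHADD. The groups did not overlap within either sex. The log2 change was 0.51 (SE 0.15, adjusted p = 0.0166) in females and 0.50 (SE 0.15, adjusted p = 0.0362) in males. The female call was lost in 3 of 26 alternatives (no filter, the female groups alone, without WT female 3) and the male call in 11.

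mt-Nd5 and mt-Nd6, the other distinctly counted genes of complex I, had positive changes that did not pass in either sex or in the mean. In the mean of both sexes mt-Nd5 passed in 9 of 25 alternatives, among them edgeR and DESeq2, and mt-Nd6 in 5. mt-Nd5 (ENSMUSG00000064367), another proton-pumping subunit, had 492625 ± 31708 normalised reads (mean ± SD, n = 3) in WT females, against 579525 ± 82562 in LCHADD females. Its male means were 586124 ± 63084 and 700219 ± 38284, and its log2 change in the mean of both sexes was 0.24 (SE 0.10, adjusted p = 0.0568). mt-Nd6 (ENSMUSG00000064368) is the only protein gene read from the opposite strand. It had 113485, 115357 and 108221 in WT females, against 122899, 105742 and 147353 in LCHADD females, which overlapped. The male values were 130097, 130067 and 117258 in WT and 136938, 153153 and 143973 in LCHADD. Its log2 change in the mean of both sexes was 0.17 (SE 0.08, adjusted p = 0.0932). mt-Nd5 and mt-Nd6 overlap by 14 bases on opposite strands, and no source used here says whether the counting used strand, so reads there cannot be assigned to 1 of them.

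The other complex I genes, mt-Nd3, mt-Nd4 and mt-Nd4l, share sequence with nuclear copies. mt-Nd4 (ENSMUSG00000064363), a proton-pumping subunit, had 374998 ± 8729 in WT females, against 513102 ± 80904 in LCHADD females, a log2 change of 0.44 (SE 0.13, adjusted p = 0.0171). In males its log2 change was 0.39 (SE 0.13, adjusted p = 0.0573). The female call was lost in 4 of 26 alternatives, among them those without WT female 1 or WT female 2, and the male change passed in 10, among them edgeR and DESeq2. mt-Nd4l (ENSMUSG00000065947), a small membrane subunit, ranged over 240 to 544 normalised reads in the 12 libraries, with log2 changes of 0.58 (SE 0.15, adjusted p = 0.00817) in females and 0.72 (SE 0.15, adjusted p = 0.00495) in males. It overlaps mt-Nd4 by 7 bases on the same strand. mt-Nd3 (ENSMUSG00000064360), a small subunit near the ubiquinone site, ranged over 465 to 832, with log2 changes of 0.50 (SE 0.13, adjusted p = 0.00660) in females and 0.37 (SE 0.13, adjusted p = 0.0576) in males, where it passed in 8 of 26 alternatives.

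Complex III, which passes electrons from ubiquinol to cytochrome c, has 1 subunit encoded here, the cytochrome b gene mt-Cytb (ENSMUSG00000064370). It had 728634, 706597 and 741684 normalised reads in WT females, against 823121, 789502 and 1116030 in LCHADD females. The males had 850597, 934821 and 772029 in WT and 954108, 1031090 and 974702 in LCHADD. The groups did not overlap within either sex, but the log2 change did not pass in females, at 0.31 (SE 0.15, adjusted p = 0.132), or in males, at 0.21 (SE 0.15, adjusted p = 0.373). In the mean of both sexes it was 0.26 (SE 0.11, adjusted p = 0.0633), and it passed in 8 of 25 alternatives (4 of 26 in females).

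Complex IV, cytochrome c oxidase, has its catalytic core encoded here. mt-Co1 (ENSMUSG00000064351), the subunit in which oxygen is reduced, was the most abundant member. It had 2272130, 2262020 and 2299950 normalised reads in WT females, against 2391740, 2285010 and 3268930 in LCHADD females. The male values were 2504980, 2790850 and 2487330 in WT and 2763230, 3071020 and 3020320 in LCHADD. The groups overlapped in both sexes, and the log2 change in the mean of both sexes was 0.19 (SE 0.13, adjusted p = 0.254), which passed in 2 of 25 alternatives. mt-Co2 (ENSMUSG00000064354), which receives electrons from cytochrome c, ranged over 5120 to 8659, with log2 changes of 0.34 (SE 0.12, adjusted p = 0.0387) in females and 0.38 (SE 0.12, adjusted p = 0.0422) in males. mt-Co3 (ENSMUSG00000064358), the third core subunit, ranged over 4967 to 8261, with log2 changes of 0.36 (SE 0.13, adjusted p = 0.0374) in females and 0.28 (SE 0.13, adjusted p = 0.156) in males. The mt-Co2 calls were lost in 10 (females) and 12 (males) of 26 alternatives, and the female mt-Co3 call in 9. The male mt-Co3 change passed in 3.

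Complex V, ATP synthase, has 2 subunits encoded here by overlapping genes that share 43 bases. mt-Atp6 (ENSMUSG00000064357), part of its proton channel, had 2510, 2423 and 2315 in WT females, against 3103, 2435 and 4048 in LCHADD females. Its males had 3031, 3282 and 2583 in WT and 3634, 4297 and 3739 in LCHADD. It rose in the mean of both sexes, by 0.38 (SE 0.10, adjusted p = 0.00618) on the log2 scale, but passed in neither sex alone, although the female change passed in 6 and the male in 4 of 26 alternatives. mt-Atp8 (ENSMUSG00000064356), a small subunit of the membrane part, had only 1.71 to 14.9 normalised reads in WT libraries and 8.74 to 20.6 in LCHADD libraries. The groups overlapped in both sexes, and its log2 change of 0.78 (SE 0.36, adjusted p = 0.0953) in the mean of both sexes depends on the added 1 at such low values.

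Of the 7 nuclear copies compared on chromosome 1, 6 rose in the mean of both sexes, where 20.3% of all tested genes did. Each of the 6 genes they resemble rose too. In the mean of both sexes Gm10222 rose by 0.66 (SE 0.11, adjusted p = 0.000264), where mt-Nd4l rose by 0.65. Gm28439 rose by 0.49, beside 0.42 for mt-Nd4, and Gm28438 by 0.45, beside 0.44 for mt-Nd3. Gm10925 rose by 0.38 and mt-Atp6 by 0.38, Gm28661 by 0.37 and mt-Co2 by 0.36, and Gm28437 by 0.30 and mt-Co3 by 0.32. Neither Gm29216, at 0.15, nor mt-Co1, at 0.19, passed. These 7 copies together took 0.182% of reads in WT females and 0.217% in LCHADD females, and 0.210% and 0.254% in males. Whether the reads counted for a copy came from the nuclear or the mitochondrial genome was not tested, and the values of genes and copies are not independent where they share sequence.

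**Figure D4:**
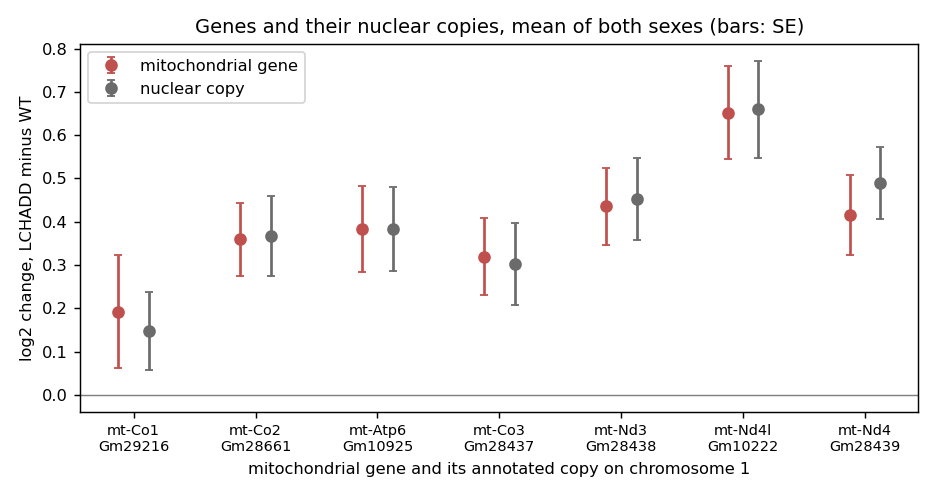
Log2 change (mean of both sexes, LCHADD minus WT, bars are SE) of the 7 mitochondrial genes that have an annotated copy on chromosome 1 and of the copies. The SE bars of gene and copy overlap in each pair, and the mt-Nd4l pair is highest at 0.65 and 0.66.

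The rRNAs are the members that fell. mt-Rnr1 (ENSMUSG00000064337), the rRNA of the small ribosomal subunit, had 43363, 41007 and 33039 normalised reads in WT females, against 20844, 27447 and 25354 in LCHADD females. The males had 37265, 41137 and 35091 in WT and 25952, 30948 and 28103 in LCHADD. Every LCHADD library was below every WT library of either sex. The log2 change was -0.67 (SE 0.12, adjusted p = 0.000507) in females and -0.42 (SE 0.12, adjusted p = 0.0259) in males. The male call was lost in 5 of 26 alternatives, and the female call in none.

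mt-Rnr2 (ENSMUSG00000064339), the rRNA of the large subunit, had 82847, 83205 and 78326 in WT females, against 42493, 53447 and 53836 in LCHADD females. The males had 84041, 98028 and 77712 in WT and 69865, 85137 and 73822 in LCHADD. The females did not overlap, and LCHADD male 2 lay above 2 of the 3 WT males. The log2 change was -0.71 (SE 0.11, adjusted p = 0.000227) in females, where it fell in every alternative run, and -0.18 (SE 0.11, adjusted p = 0.309) in males, where it passed in none.

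The interaction of genotype and sex tests whether a change itself differed between the sexes. None of the 16 members passed in limma, where 0.00721% of all tested genes did (1 gene), and 1 member was under an unadjusted p of 0.05. That member was mt-Rnr2, with a male change 0.53 above the female one (SE 0.16, adjusted p = 0.283). On the recovered reads it was the 1 member called by DESeq2, which called 0.909% of all tested genes, while edgeR called 0 members and 0.0144% of all tested genes. mt-Rnr1 had 0.26 (SE 0.17, adjusted p = 0.645). There were 1.91, 2.03 and 2.37 mt-Rnr2 reads per mt-Rnr1 read in the WT females and 2.04, 1.95 and 2.12 in the LCHADD females, which overlap. In the males there were 2.26, 2.38 and 2.21 in WT and 2.69, 2.75 and 2.63 in LCHADD, which do not.

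The rRNAs are the most abundant mitochondrial RNAs in cells, but not in these counts. Per kb, mt-Rnr2 had 53114 and mt-Rnr1 40297 mean normalised reads in WT, against 582540 for mt-Nd1, the next protein gene along the genome. No source used here says whether polyadenylated RNA was selected or rRNA removed. Of 14 listed RNAs that lack or can lack a poly(A) tail, 5 (Hist2h2aa1, Rmrp, Rny1, Rny3 and Snord118) had no read in any library, and only 5 passed the filter on low values. Of these 5, 2 rose in the mean of both sexes, where 20.3% of all tested genes did, and none fell: Hist1h1c, a linker histone gene, by 0.47 (adjusted p = 0.000969), and Hist1h2bc, a core histone gene, by 0.24 (adjusted p = 0.00760). In females the summed level of the list was 1726 to 1985 (WT) and 2298 to 2935 (LCHADD), and in males 1647 to 1743 (WT) and 1852 to 2109 (LCHADD). The part of RNA selection in the fall of the rRNAs was not tested.

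tRNAs carry amino acids to the ribosome, and their genes were nearly without reads. Of the 22, 19 had no read in any library, which allows each a share of at most 1.92e-05% of reads in the shallowest library (3 counts, counting error only). mt-Ta had 1 read in 1 library and mt-Tn 1 read in each of 2 libraries. mt-Tp (ENSMUSG00000064372), the proline tRNA printed above, had 2607, 2414 and 2342 normalised reads in WT females, against 2899, 2689 and 3697 in LCHADD females. Its males had 2745, 3044 and 2696 in WT and 3709, 4544 and 4513 in LCHADD. The groups did not overlap within either sex, and the log2 change was 0.32 (SE 0.11, adjusted p = 0.0340) in females and 0.59 (SE 0.11, adjusted p = 0.00234) in males. The female call was lost in 6 of 26 alternatives. mt-Tp is read from the same strand as mt-Nd6 and lies beside the control region, and which RNA these reads came from was not tested.

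Within the mRNA pool the summed shares of the complexes shifted, given here as a description without a test. The sums include mt-Co1, mt-Nd4 and other genes whose counts are uncertain. Complex I genes made up 38.8, 38.2 and 37.9% of mitochondrial mRNA reads in WT females, against 43.3, 42.7 and 41.5% in LCHADD females. They made up 39.8, 39.2 and 37.8% in WT males, against 43.8, 43.4 and 42.4% in LCHADD males. All 6 LCHADD libraries were above all 6 WT libraries. Complex IV genes, nearly all of it mt-Co1, made up 46.8 ± 0.389% and 42.8 ± 0.745% in females and 46.0 ± 1.28% and 42.6 ± 0.884% in males (WT, then LCHADD), again without overlap. Complex III made up 14.8 ± 0.218% and 14.6 ± 0.185% in females, which overlapped, and 15.0 ± 0.310% and 14.2 ± 0.191% in males, which did not. Complex V was at 0.0453% to 0.0592%. Genes within a complex did not all shift alike. For mt-Nd2 the LCHADD mean share was 1.39 (females) and 1.32 (males) of the WT mean. For mt-Nd5 it was 0.93 and 0.97, with overlap, and for mt-Nd6 0.88 and 0.93. The other complex I genes had higher mean shares in LCHADD in both sexes. In complex IV mt-Co1 was at 0.91 and 0.92, mt-Co2 at 1.01 and 1.06 and mt-Co3 at 1.02 and 0.98.

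Among the 5 distinctly counted mRNAs the make-up also shifted. mt-Nd2 made up 18.0, 17.3 and 16.5% of their reads in WT females, against 22.3, 23.1 and 21.6% in LCHADD females. In males it made up 17.6, 17.6 and 17.5% in WT and 21.9, 22.01 and 21.6% in LCHADD, with no overlap between the 6 WT and the 6 LCHADD libraries. mt-Cytb went from 32.6 ± 0.605% to 30.0 ± 0.858% in females and from 32.4 ± 0.250% to 28.7 ± 0.218% in males. mt-Nd5 went from 22.2 ± 1.43% to 19.2 ± 0.668% and from 22.2 ± 0.357% to 20.4 ± 0.631%. mt-Nd6 went from 5.05 ± 0.210% to 4.15 ± 0.165% and from 4.79 ± 0.222% to 4.21 ± 0.0741%. The shares of mt-Cytb, mt-Nd5 and mt-Nd6 were lower in all 6 LCHADD libraries than in all 6 WT libraries, although none of these genes had a negative change of its own. mt-Nd1 went from 22.9 ± 1.196% to 24.3 ± 1.04% in females, with overlap, and from 23.01 ± 0.304% to 24.9 ± 0.634% in males, without.

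The nuclear-encoded partners in the same complexes were mostly lower where they passed the test. Of 75 nuclear-encoded genes of complexes I, III, IV and V, 3 rose and 29 fell in the mean of both sexes, where 20.3% and 20.6% of all tested genes did. Their median log2 change was -0.08. The 75 include Atpif1, an inhibitor that is counted here with the subunits of complex V. In females 4 rose and 19 fell (16.7% and 17.2% of all tested genes), and in males 1 rose and 11 fell (7.71% and 7.77%). In complex I, 1 of 37 rose and 16 fell, among them Ndufs7, an iron-sulfur subunit, at -0.51 (adjusted p = 2.39e-06), Ndufv1, the subunit that binds NADH, at -0.39 (adjusted p = 7.55e-06), and the accessory subunit Ndufa13 at -0.41 (adjusted p = 3.09e-05). Ndufb9, the most abundant that did not pass, had 0.06 (adjusted p = 0.407). In complex III, 1 of 9 rose and 5 fell, among them the core subunit Uqcrc1 at -0.39 (adjusted p = 1.19e-05), Uqcr11 at -0.37 (adjusted p = 0.000354) and the Rieske iron-sulfur protein Uqcrfs1 at -0.28 (adjusted p = 0.000708), while Uqcrh had 0.02 (adjusted p = 0.822). In complex IV none of 11 rose and 3 fell. The 3 were Cox7a1 at -0.72 (adjusted p = 2.13e-05), Cox8b at -0.46 (adjusted p = 4.83e-05) and Cox6c at -0.21 (adjusted p = 0.0259). Cox6a2, the most abundant of the 11, had -0.03 (adjusted p = 0.719). The list of 11 holds Cox6a2, Cox7a1 and Cox8b but not Cox6a1, Cox7a2 or Cox8a, which were not looked at. In complex V, 1 of 18 rose and 5 fell. The one that rose was Atpif1, the inhibitor of ATP hydrolysis by the enzyme, at 0.65 (adjusted p = 8.39e-05), and among those that fell were Atp5d, at -0.20 (adjusted p = 0.00212), and Atp5a1, at -0.22 (adjusted p = 0.00514), both of the catalytic part. Atp5b, which holds the catalytic sites, had -0.06 (adjusted p = 0.391).

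**Figure D5:**
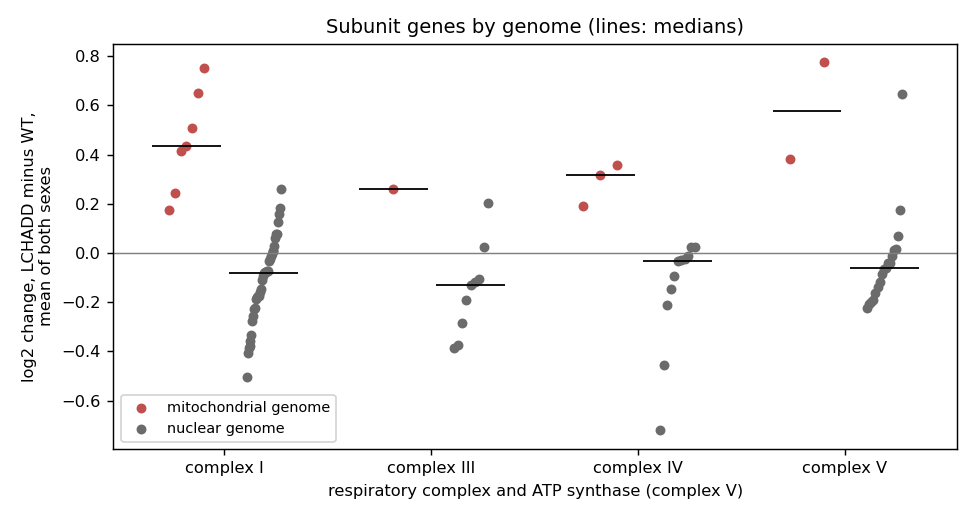
Each point is the log2 change (LCHADD minus WT, mean of both sexes) of 1 tested subunit gene of complexes I, III, IV and V, encoded in the mitochondrial genome or in the nuclear genome; lines are medians. All 13 mitochondrial points lie above 0, and the nuclear medians lie between -0.13 and -0.03. The inhibitor gene Atpif1 is plotted with the nuclear genes of complex V.

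The nuclear genes that act on mitochondrial RNA were read from lists chosen with earlier results of these data known, and a few genes stand in more than 1 list. In the mean of both sexes 20.3% of all tested genes rose and 20.6% fell, and the share that rose ran from 15.8% to 30.0% over these 6 lists. Of 12 transcription genes, 3 rose (25%) and none fell, with none passing in either sex alone. The 3 are Mterf4, by 0.35 (adjusted p = 0.00879), and the termination factor genes Mterf1a, by 0.72 (adjusted p = 0.0305), and Mterf1b, by 0.96 (adjusted p = 0.0108). Mterf1a and Mterf1b are near copies of each other with few reads, at most 33.0 and 24.0 normalised reads in any library, so their counts are uncertain. Polrmt, the mitochondrial RNA polymerase, had -0.03 (SE 0.06, adjusted p = 0.693), Tfam, which packages and activates mitochondrial DNA, 0.01 (SE 0.06, adjusted p = 0.862), and the start factor gene Tfb2m 0.12 (adjusted p = 0.168); none of them passed.

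Of 22 tested genes of mitochondrial DNA replication and the nucleoid, 4 rose (18.2%) and 2 fell (9.09%) in the mean of both sexes, with a median of 0.11. Lonp1, a protease that degrades Tfam among other proteins, rose by 1.503 (SE 0.11, adjusted p = 1.36e-07), and Slc25a33, a carrier of pyrimidine nucleotides, by 1.12 (SE 0.14, adjusted p = 1.57e-05). Mpv17, an inner membrane protein needed to keep mitochondrial DNA, fell by 0.91 (adjusted p = 2.32e-07). Polg, the DNA polymerase, had 0.11 (adjusted p = 0.0919).

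Of 34 genes that cut or modify mitochondrial RNA, 9 rose (26.5%, beside 20.3% of all tested genes) and 4 fell (11.8%, beside 20.6%), with a median of 0.14. Trnt1, which adds the CCA end to tRNAs, rose by 0.47 (adjusted p = 0.000274). Osgepl1, which modifies tRNAs, fell by 0.56 (adjusted p = 0.000112), and Rpusd4, a pseudouridine synthase of the large-subunit rRNA, at -0.35 (adjusted p = 0.00209). Elac2, which cuts tRNAs at their 3′ end, had 0.19 (adjusted p = 0.252), and Hsd17b10, a subunit of the enzyme that cuts at the 5′ end, 0.10 (adjusted p = 0.105). Of 20 tested genes of mitochondrial RNA stability and turnover, 6 rose (30.0%) and none fell, with a median of 0.09. Lrpprc, which stabilises mitochondrial mRNAs, rose by 0.27 (SE 0.06, adjusted p = 0.00267), Rexo2, which degrades short RNAs, by 0.63 (SE 0.08, adjusted p = 1.94e-05), and the RNA helicase Ddx28 by 0.38 (adjusted p = 0.00479). Fastk had -0.04 (adjusted p = 0.5). Slirp, the partner of Lrpprc, was listed at 0 to 3.17 in all libraries and was not tested. Whether reads of Slirp were lost in the counting was not tested either.

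Of 17 tested mitochondrial translation factors, 3 rose (17.6%, beside 20.3% of all tested genes) and 2 fell (11.8%, beside 20.6%), with a median of 0.01. Tufm, the elongation factor that brings tRNAs to the ribosome, fell by 0.29 (adjusted p = 0.000223), while Gatb, part of the enzyme that makes glutaminyl-tRNA, rose by 0.23 (adjusted p = 0.00292) and Mtrf1, a release factor gene, by 0.28 (adjusted p = 0.0128). Gfm1, another elongation factor, had 0.03 (adjusted p = 0.592). Of 19 tRNA synthetases that act in mitochondria, 3 rose (15.8%) and 2 fell, with a median of 0.02. Gars and Kars, which also serve the cytosol, rose by 2.10 (SE 0.13, adjusted p = 2.46e-08) and 0.30 (adjusted p = 0.000179), and Rars2, the arginyl-tRNA synthetase of mitochondria, by 0.55 (adjusted p = 3e-05). Lars2 had 0.01 (adjusted p = 0.969) and ranged from 9975 to 29160 normalised reads between libraries.

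Markers of the cell types in ventricle moved with genotype too. Of 12 cardiomyocyte markers none rose and 9 fell in the mean of both sexes (median -0.43), where 20.3% of all tested genes rose and 20.6% fell. Among those that fell were Mb, the myoglobin gene, at -0.59 (adjusted p = 1.78e-05) and Tnni3, a troponin gene, at -0.51 (adjusted p = 6.75e-06). None rose and 6 of 10 endothelial, 9 of 10 fibroblast, 6 of 8 mural and 6 of 6 erythroid markers fell. Summed levels of the endothelial list were 16190 to 19420 in WT and 13310 to 16310 in LCHADD, of the fibroblast list 24840 to 27420 in WT and 14220 to 19780 in LCHADD. Those of the mural list were 17730 to 20080 in WT and 12540 to 18770 in LCHADD, and of the erythroid list 6991 to 12600 in WT and 1916 to 4509 in LCHADD. In females those of the macrophage list were 3558 to 4035 in WT and 4136 to 5608 in LCHADD. In males they were 3918 to 5090 in WT and 3460 to 5044 in LCHADD. The median log2 change of the macrophage list was 0.32 in females and -0.16 in males. No marker on any of these lists was at 0 in all libraries. None of 10 macrophage markers passed in the mean of both sexes, and 3 rose in females, where 16.7% of all tested genes did. For cells that should not be in ventricle, 1 of 3 tested atrial and 1 of 2 tested brown fat markers rose in the mean of both sexes. Of all tested genes 20.3% did. Summed levels of the atrial list were 178.9 to 275.0 in WT and 232.2 to 367.9 in LCHADD. Those of the brown fat list were 306.1 to 412.4 in WT and 425.2 to 580.7 in LCHADD. Summed levels of the cardiomyocyte list were 1415000 to 1545000 in WT and 796700 to 1379000 in LCHADD. Of the 12 markers, 10 fell in females and 3 in males (17.2% and 7.77% of all tested genes), with medians of -0.59 and -0.23. In males Ttn (0.05) and Mybpc3 (0.20) had positive changes that did not pass. The mitochondrial mRNA share was higher in LCHADD while the summed level of the cardiomyocyte list was lower, within each sex. Of 5 RNAs known to stay in the nucleus, 4 (Neat1, Kcnq1ot1, Malat1 and Xist, the last of them the RNA that coats the inactive X chromosome) rose in the mean of both sexes and none fell. In that mean 20.3% of all tested genes rose. In females 2 of the 5 rose (Neat1 and Kcnq1ot1) and in males 1 (Neat1), where 16.7% and 7.71% of all tested genes did. Neat1 rose by 0.59 (adjusted p = 3.39e-05) in the mean of both sexes. Xist passed in neither sex alone (adjusted p = 0.101 in females and 0.0679 in males), and in males its means were 0.909 in WT and 4.27 in LCHADD, near the added 1. Summed levels of the list, Xist included, were 6446 to 7377 in WT females, 9740 to 12930 in LCHADD females, 3980 to 5632 in WT males and 5735 to 6295 in LCHADD males. The part of cell make-up or of nuclear RNA in the changes of the members was not tested.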

How the data were processed

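RNA of mouse heart ventricle was sequenced in 12 libraries, and the authors deposited 1 table with a signal value per gene and library, that is reads of the gene scaled by the library's size factor. Whole reads were recovered by dividing each library's values by its smallest step, and 100% came out whole within 0.01. Per the submitters' processing notes, bcl2fastq and DESeq2 were used with build GRCm39. Aligner, counting tool, annotation, use of strand and library selection: all not given in the sources used here.

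Symbols, transcripts, lengths and gene order were taken from GENCODE vM21 (GRCm38), so no coordinates are given. Of the gene IDs, 51633 matched a symbol and 279 did not. The labels gave genotype and sex. Genes with at least 10 in at least 3 libraries (13865) were tested in 1 fit with 4 group means in limma 3.58.1 (lmFit, eBayes with a trend; R 4.3.3) on log2 of the deposited value plus 1, with Benjamini-Hochberg adjustment over all of them. The differences are LCHADD minus WT in females, in males, in the mean of both, and the interaction of genotype and sex. On recovered reads edgeR 4.0.16 called 4821 genes in females, 2149 in males and 5709 in both, and DESeq2 1.42.0 called 4796, 2303 and 5646. The fit, the permutation test and the word search were tested on simulated data. Shares used recovered reads and exact two-sided permutation tests with labels exchanged within sex.

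The members and the gene lists were chosen with earlier results of these data known. All 37 members are accounted for. From each nuclear list the passing members lowest in adjusted p (at most 3) and the most abundant other one are named where the list acts in mitochondria, with Polrmt, Tfam, Lrpprc, Slirp and Elac2 always. For the cell type markers and RNA types mostly counts are given. Alternatives were the added value, the filter, the scaling, the tool, the fit and single libraries left out. The labels give no batch, and libraries were not paired by the numbers shared between groups in the main tests.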

Additional observations from a re-analysis of the deposited data

How the results depend on the processing

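Over 1229 values of single members under the alternatives, none changed direction, 63 lost and 61 gained the call. Without a filter on low values 5 of 18 tested members passed in females (16.6% of 25687 genes) and 2 in males (7.07%). With each sex fitted alone 5 of 16 passed in females (24.8% of all tested genes) and 10 in males (24.1%). With single libraries left out the counts were 6 to 11 in females (26.9% to 36.6%) and 3 to 10 in males (9.5% to 23.8%). Without a filter mt-Nd1 (adjusted p = 0.0602) and mt-Nd4 (0.0733) lost their calls in the mean of both sexes. The count in that mean ran from 9 without a filter (20.5% of genes) to 15 with DESeq2 or robust eBayes (40.7% with each). The interaction called 1 member with DESeq2 (0.909% of genes). The cause of these shifts was not tested. The 4 share measures kept their direction and call throughout. The replicate block used the numbers that the labels share between groups. It gave 8 members in females (32.5% of genes), 4 in males (14.5%), 11 in both (39.5%) and 0 in the interaction (0.00721%, 1 gene). Within each sex, same-numbered WT and LCHADD libraries correlated at -0.05 to 0.03 about their group means. Differently numbered ones correlated at -0.04 to 0.07. Whether the numbers mark a shared batch cannot be told from this. With numbers as pairs, the exact p of the 4 measures was 0.0312, the smallest 6 pairs allow.

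Scaling by nuclear or by total reads moved the median of all genes by at most 0.08. No member changed sign, but among all tested genes in the mean of both sexes 3317 rose and 2457 fell under the first and 1938 and 3516 under the second, against 2808 and 2853. Nuclear genes that did not pass changed sign as follows. With nuclear reads Cox6a2 was 0.0152, Fastk 0.0022 and Polrmt 0.0068. With total reads Gfm1 was -0.0349, Lars2 -0.0551, Ndufb9 -0.0052, Tfam -0.0530 and Uqcrh -0.0455. Lars2 was -0.00042 with upper-quartile scaling, -0.0156 with edgeR and -0.0107 with DESeq2. Without WT female 3 and LCHADD female 2, Cox6a2 was 0.0077 and Lars2 -0.0533. With single libraries left out Lars2 ran from -0.199 to 0.188, Tfam from -0.0087 to 0.0417 and Uqcrh from -0.0259 to 0.0772.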
